A study of Mus musculus with 14 samples.

Results

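Liver sinusoidal endothelial cells (LSEC) were compared with lung endothelial cells, both from control mice without Cre recombinase. The comparison rests on 5 of the 14 samples of the series, 3 of control LSEC and 2 of control lung endothelium, chosen by their titles alone. Each sample was hybridised to 1 Affymetrix mouse expression array, which carries several short probes per transcript, read together as a probe set, and arrays are numbered below by the replicate number of their sample. Both groups are labelled MxCre-, so neither had the interferon-inducible Cre transgene. Both also carried the alleles written Fk1 L/L, Fk2 L/L and Afx L/L on the FVBn background. These are floxed alleles of Foxo1, Foxo3 and Foxo4 under older gene names, shared by every mouse of the series. The labels give no age, do not describe how the cells were isolated, and do not say whether replicates came from separate animals. The p-values therefore measure a spread between samples that may be technical. That spread was pooled over all 14 arrays, including those outside this comparison. Of 18194 genes measured, 13036 were tested.

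Endothelium lines all vessels but differs by organ. The sinusoids of the liver are lined by thin endothelium with open pores and little basement membrane, which clears waste molecules from blood through scavenger receptors and supplies Bmp6 for iron sensing and factor VIII for clotting. Lung capillaries form a closed layer over a basement membrane beside the air sacs, and their surface carries enzymes such as angiotensin-converting enzyme, encoded by Ace, and carbonic anhydrase 4, encoded by Car4.

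The markers of each bed followed the labels. Levels are given as log2 values after quantile normalization, and each difference is control LSEC minus control lung, so that a positive value means higher in LSEC. A gene was called when its limma p-value, adjusted over all genes tested, was under 0.05. Stab2, the hyaluronan receptor stabilin-2, stood at 11.34, 12.12 and 11.61 on the 3 LSEC arrays and at 5.94 and 6.02 on the 2 lung arrays, a difference of 5.71 (SE 0.34, adjusted p = 3.78e-07). Gata4, the transcription factor that sets the sinusoidal program, stood at 8.93, 8.78 and 8.54 in LSEC and at 5.85 and 5.20 in lung, a difference of 3.22 (SE 0.25, adjusted p = 2.51e-06). Clec4g, a C-type lectin of sinusoids, stood at 9.11, 9.66 and 9.43 in LSEC and at 7.03 and 6.98 in lung, a difference of 2.40 (SE 0.16, adjusted p = 9.25e-07). On the probe sets used, all 3 sinusoidal markers were higher on every LSEC array than on both lung arrays. Ace went the other way, with 9.26, 9.38 and 9.46 in LSEC and 11.06 and 11.70 in lung, a difference of -2.01 (SE 0.26, adjusted p = 0.000105). Car4 stood at 7.36, 7.37 and 7.38 in LSEC and at 8.21 and 8.26 in lung, a difference of -0.86 (SE 0.17, adjusted p = 0.0015) on the probe set used. The other Car4 probe set averaged 2.76 in LSEC and 8.40 in lung, a difference of -5.64, and the mean of both gave -3.25. The other Clec4g probe set averaged 7.62 in LSEC and 7.46 in lung, a difference of 0.16, and the mean of both gave 1.28. On the probe sets used, neither Car4 nor Clec4g overlapped between the groups, as was so at 67.7% of all genes tested.

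**Figure D1:**
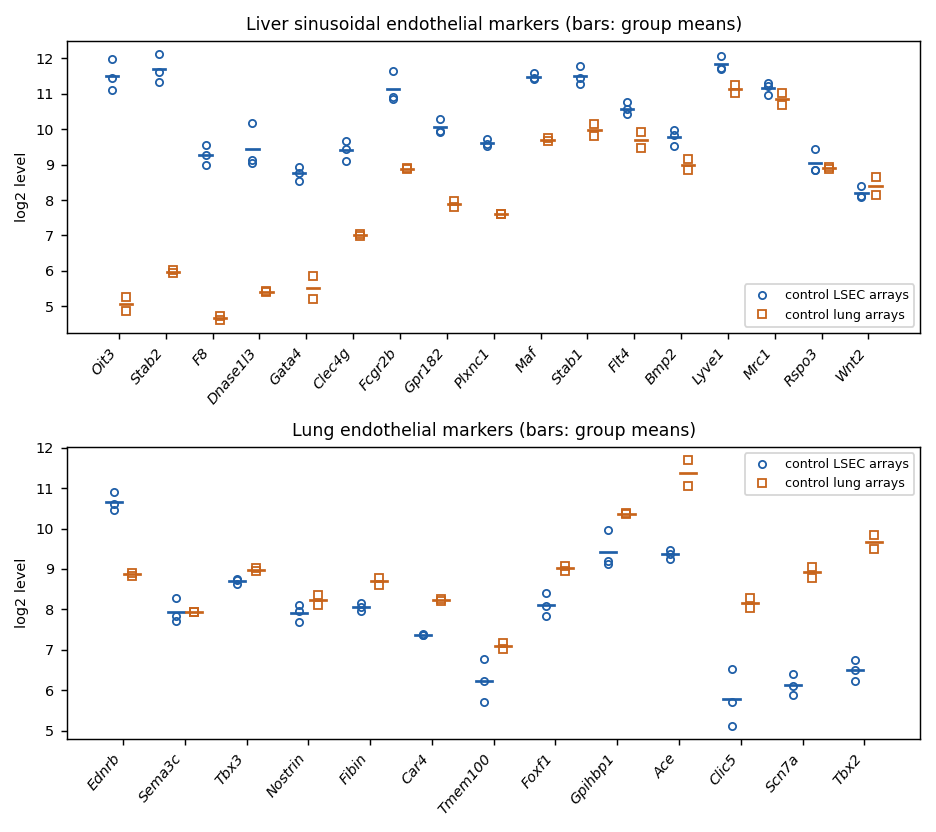
Log2 level of each gene of the sinusoidal list (top) and the lung endothelial list (bottom) on the 3 control LSEC arrays (circles) and the 2 control lung arrays (squares), with bars at the group means. Stab2 lay between 11.34 and 12.12 in LSEC and between 5.94 and 6.02 in lung, while Ednrb, on the lung list, was higher in LSEC.

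The 2 beds differed at many genes. In all, 3378 genes (25.9%) were called higher in LSEC and 2633 (20.2%) higher in lung. Differences of at least 4-fold among called genes were more often lung-high, with 323 genes (2.48%) against 95 genes (0.729%) that were LSEC-high. The values of the groups did not overlap at 8826 genes (67.7%), of either direction. The median difference over all genes tested was 0.08 and the median size 0.32. Arrays of the same bed correlated at r of 0.971 to 0.987 across genes and arrays of different beds at 0.803 to 0.832, where genes are not independent replicates. The counts depend on what is held equal between the beds. Of all calls 56.2% were higher in LSEC, and of those of at least 4-fold 22.7%. Centring each array on 20 pan-endothelial genes, called endothelial centring below, lowered the median of all genes by 0.68, and these shares became 4.69% and 5.25%, with 427 genes called higher in LSEC and 8686 higher in lung. The values as deposited, without quantile normalization, gave 2554 genes higher in LSEC and 2959 higher in lung, so that 46.3% of calls were higher in LSEC. Every difference below is therefore relative to the typical gene on the array, and a gene higher in LSEC by less than 0.68 would be lower after endothelial centring. Of the genes named below, Ackr1, Vcam1, Cav2, Car13, Aqp1, Notch1, Bmp2, Flt4, Lyve1, Gimap1, Slc11a1, Lipa, Csf1r, Apoc3, Foxo3, B2m, Pgk1 and Hprt were called higher in LSEC but not after that centring. The shares of 25.9% and 20.2% over all genes are also the background against which each list's counts stand.

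A difference also depends on the probe set where a gene has several, and the brightest was used. Taken as the mean of a gene's probe sets, differences were over 1.5 times smaller but still called for Angptl4, Bub1, Cav2, Cavin1, Dpp4, Ehd2, Fbln2, Fzd1, Fzd7, Gimap6, Jag1, Lrp1, Ltbp1, Maf, Notch2, Plat, Plxnc1, Rgs5, Sftpc, Top2a and Tpx2. Those of Lipa, Slc16a1 and Slc30a1 were not called, at 0.32, -0.41 and 0.18.

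**Figure D2:**
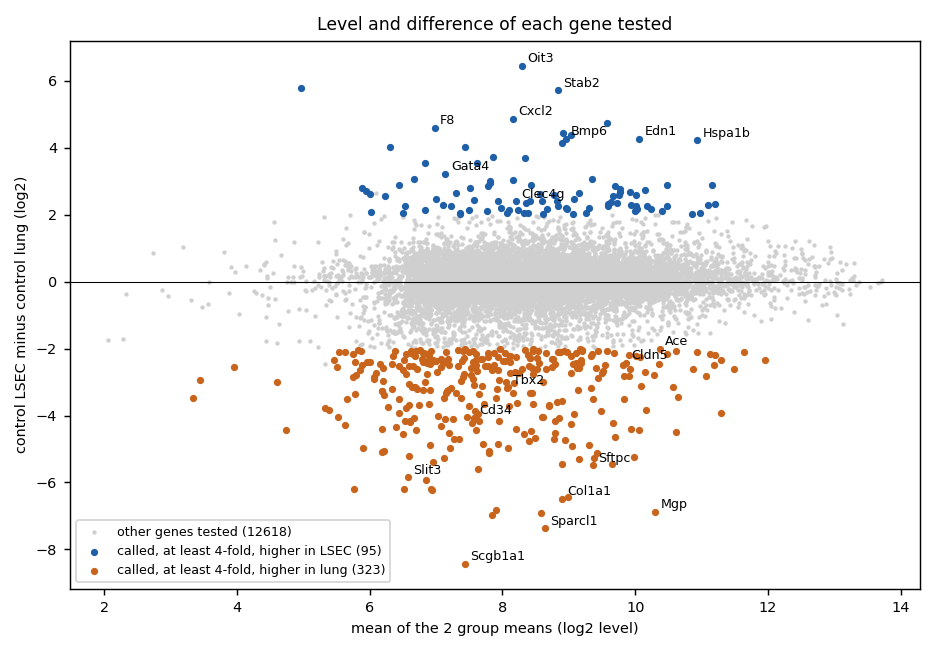
Difference between control LSEC and control lung (vertical axis, log2) against the mean of both group means (horizontal axis, log2 level) for the 13036 genes tested. The 95 called genes at least 4-fold higher in LSEC are blue and the 323 higher in lung are orange, and the lung-high genes reach larger differences, down to -8.42 for Scgb1a1. With endothelial centring the numbers are 36 and 650.

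RNA of other lung cells moved with the bed. Of 17 lung epithelial markers tested, 12 were called higher in lung and 1 higher in LSEC, where 20.2% and 25.9% of all genes were. Their median difference was -1.60. The sum of the 18 markers measured, in antilog units, was 3953 to 4329 on the LSEC arrays and 17236 to 17650 on the lung arrays. Scgb1a1, the secretoglobin of club cells, stood at 2.83, 4.26 and 2.59 in LSEC and at 11.72 and 11.58 in lung. The surfactant protein C gene Sftpc stood at 6.46, 6.51 and 6.88 in LSEC and at 12.13 and 12.07 in lung. Sftpa1 and Cldn18 of alveolar epithelium differed by -4.71 and -3.33, while the general epithelial marker Epcam was not called. Fibroblast markers showed the widest gap of all 23 cell type lists. They were called higher in lung at 12 of 13 genes, with a median of -3.20 and a summed level of 1433 to 2177 on the LSEC arrays against 29868 to 33052 on the lung arrays. Col1a1, Col1a2 and Col3a1, which encode fibrillar collagens, differed by -6.48, -4.49 and -5.25, the elastin gene Eln by -5.44, and Pdgfra, the PDGF receptor of fibroblasts, by -5.31. Of 11 pericyte and smooth muscle markers 4 were called, all higher in lung, and 7 were not. The share called was 36.4%, against 46.1% of all genes, and the median was -0.21. The largest differences were those of Pdgfrb at -5.58 and the pericyte gene Rgs5 at -3.49. No member of these lists was at 0 on every array. In bulk samples, fewer cells of a type and less RNA per cell cannot be told apart, and the part of epithelial and fibroblast RNA in the lung-high genes was not tested.

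The level of Kupffer cell and macrophage markers moved with 1 LSEC array. Of 12 tested, 2 were called higher in LSEC and 1 higher in lung, where 25.9% and 20.2% of all genes were. The summed level of the 13 Kupffer cell and macrophage markers was 11940 and 11993 on LSEC arrays 1 and 2, 27066 on LSEC array 3, and 18283 and 20311 on the lung arrays. Cd5l, a macrophage gene, differed by 3.07 and the scavenger receptor gene Marco by -2.60, with 7.87, 8.04 and 9.94 on the LSEC arrays and 11.10 and 11.34 on the lung arrays. Without LSEC array 3 these differences were 2.71 for Cd5l and -3.26 for Marco. With levels raised to the limit for testing, Cd5l was 1.33 and not called (adjusted p = 0.0755). Csf1r, the receptor of macrophage growth factor, differed by 0.86 (adjusted p = 0.0365), and by 0.53 without LSEC array 3 (adjusted p = 0.0949); its call was also lost without lung array 1 (0.187) or lung array 2 (0.0813). The alveolar macrophage genes Chil3 and Atp6v0d2 differed by -2.35 and -2.11. Without LSEC array 3, 3207 genes were called higher in LSEC and 2450 higher in lung, of which 95 and 352 differed at least 4-fold. Among the neutrophil markers S100a8 alone was called, at -3.95, and among mast cell and basophil markers Mcpt8 alone, at -2.55. Of 11 hepatocyte markers measured, 7 were tested and 4 called. Apoa1, an apolipoprotein of hepatocytes, differed by 4.03, Apoc3 by 0.40 (adjusted p = 0.0412), Ttr by -0.63 and Hp by -6.18. Another Ttr probe set differed by 0.71, and the other Apoa1 probe sets, all below the level limit in both beds, by -0.12 to 0.66. Apoc3 lost its call without any 1 of the 5 arrays, where the adjusted p ran from 0.0629 to 0.164, and its difference was -0.28 after endothelial centring. Albumin lay below the level limit for testing. The other 9 cell lists, of mesothelium, stellate cells, cholangiocytes, platelets, red cell precursors, dendritic, B, T and natural killer cells, each had at most 2 members called in either direction.

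**Figure D3:**
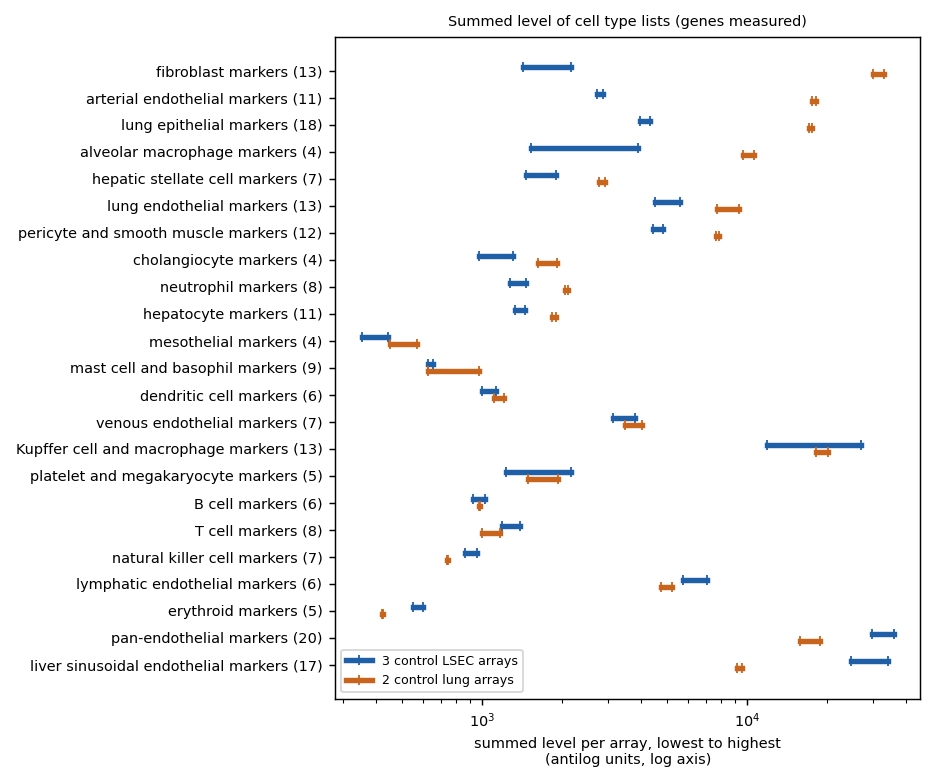
Summed level of each cell type list (horizontal log axis, antilog units, genes measured in brackets), drawn from the lowest to the highest array for control LSEC (blue) and control lung (orange). Fibroblast markers run from 1433 to 2177 in LSEC and from 29868 to 33052 in lung, and sinusoidal markers from 24773 to 33970 in LSEC and from 9211 to 9601 in lung. The macrophage, platelet and B cell intervals of LSEC enclose those of lung.

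Of 17 sinusoidal endothelial markers 14 were called, all higher in LSEC, and 9 of these by at least 4-fold. The shares over all genes were 25.9% and 0.729%, and the median difference of the list was 2.01. Oit3, a secreted zona pellucida domain protein, stood at 11.09, 11.99 and 11.45 in LSEC and at 4.86 and 5.27 in lung, a difference of 6.45 (SE 0.37, adjusted p = 3e-07). F8, which encodes coagulation factor VIII, stood at 8.99, 9.55 and 9.28 in LSEC and at 4.74 and 4.63 in lung, a difference of 4.59 (SE 0.30, adjusted p = 7.26e-07). Dnase1l3, a secreted nuclease that degrades DNA in blood, stood at 9.04, 10.17 and 9.12 in LSEC and at 5.43 and 5.40 in lung, a difference of 4.03. These genes were at least 3 log2 units higher on each LSEC array than on either lung array. Fcgr2b, the inhibitory Fc receptor that clears immune complexes, differed by 2.25, the orphan receptor gene Gpr182 by 2.16, the semaphorin receptor gene Plxnc1 by 2.01, the transcription factor gene Maf by 1.78 and the scavenger receptor gene Stab1 by 1.52. Lyve1, a hyaluronan receptor, was high in both beds, at 11.69, 12.08 and 11.73 in LSEC and at 11.26 and 11.03 in lung, and differed by only 0.69 (adjusted p = 0.0254). That call was lost without LSEC array 2 (adjusted p = 0.0809), lung array 1 (0.0561) or lung array 2 (0.158), and the difference was 0.01 after endothelial centring. The VEGF-C receptor gene Flt4 and the ligand gene Bmp2 differed by 0.88 and 0.78, and without lung array 2 by 0.65 (adjusted p = 0.0697) and 0.63 (0.0767). The other Flt4 probe set differed by -0.11, and the mean of both by 0.39, which was not called (adjusted p = 0.107). The mannose receptor gene Mrc1 and the Wnt pathway genes Wnt2 and Rspo3 were not called, at 0.31, -0.19 and 0.14 with adjusted p of 0.38, 0.369 and 0.849. Their signs did not hold, since Mrc1 and Rspo3 turned negative after endothelial centring, Rspo3 also without LSEC array 1, and Wnt2 turned positive without lung array 2 and was called lung-high after endothelial centring, at -0.88 (adjusted p = 0.00313).

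Scavenger, lectin and Fc receptors split between the beds. Of 21 tested, 9 were called higher in LSEC and 5 higher in lung, where 25.9% and 20.2% of all genes were. Of the genes measured, 6 also stand on the sinusoidal list. The median was 0.31, and -0.37 after endothelial centring, with 6 and 10 calls. Besides the stabilins, Scarf1, a scavenger receptor of endothelium, differed by 2.30. The lung-high members included Mrc2, the collagen-binding lectin of fibroblasts, at -6.22, Colec12 at -2.60 and Lrp1, a large endocytic receptor, at -2.46. Endocytosis and lysosome genes were called higher in LSEC at 16 of 26 members and higher in lung at 1, with a median of 0.34 that became -0.35 after endothelial centring, with 3 and 11 calls. Ehd3, a protein of endosomal recycling, stood at 11.32, 11.34 and 11.28 in LSEC and at 8.70 and 8.74 in lung, the largest difference of this list at 2.59 (SE 0.31, adjusted p = 5.04e-05). The lysosomal hydrolase genes Hexa and Gla differed by 1.43 and 1.21. The lysosomal acid lipase gene Lipa differed by 0.95 on its brightest probe set and by -0.49 on another. The cathepsin gene Ctsh went the other way, at -1.39, and lost its call without lung array 1 (adjusted p = 0.0597).

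Of 13 lung endothelial markers 10 were called higher in lung and 1 higher in LSEC, where 20.2% and 25.9% of all genes were. Their median was -0.87. Tbx2, a T-box transcription factor of lung, stood at 6.51, 6.74 and 6.22 in LSEC and at 9.48 and 9.83 in lung, a difference of -3.17 (SE 0.27, adjusted p = 5e-06). The sodium channel gene Scn7a differed by -2.78 and the chloride channel family gene Clic5 by -2.36. Ednrb, the endothelin B receptor, was the exception, with 10.61, 10.91 and 10.45 in LSEC and 8.89 and 8.83 in lung, a difference of 1.79 (SE 0.19, adjusted p = 1.9e-05). Tbx2, Scn7a and Clic5 are also made by lung cells outside the endothelium, and their source was not tested.

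Markers of larger vessels were called in both directions. Arterial markers were called at 5 of 10 genes, all higher in lung, where 20.2% of all genes were called higher in lung. Mgp, the matrix Gla protein that limits calcification, stood at 6.75, 6.79 and 7.05 in LSEC and at 13.74 on both lung arrays, near the top of the scale. It held the same rank on these 2 arrays, so quantile normalization gave it equal values and their spread cannot be read. This near the top of the scale, the size of its difference of -6.88 is not well set. The semaphorin gene Sema3g stood at 4.57, 4.25 and 3.82 in LSEC and at 8.93 and 8.62 in lung, a difference of -4.57. The Notch ligand gene Dll4 differed by -0.58 and the netrin receptor gene Unc5b by -0.59, both with adjusted p = 0.0114. Without lung array 1 they were no longer called (adjusted p = 0.0682 and 0.12), and Dll4 was also lost without lung array 2 (0.0522). The other Dll4 probe set averaged 6.55 in LSEC and 9.43 in lung, a difference of -2.87, and the mean of both gave -1.72. Of 7 venous markers 3 were called higher in lung and 2 higher in LSEC. The apelin receptor gene Aplnr stood at 4.57, 4.01 and 4.75 in LSEC and at 8.76 and 8.47 in lung, a difference of -4.17. Nr2f2, the factor that sets venous identity, differed by -1.54 on its brightest probe set. As the mean of its probe sets it was -0.53 and not called (adjusted p = 0.0748). Ackr1 and Vcam1, which bind chemokines and leukocytes, differed by 1.02 and 0.86. Of 6 lymphatic markers 2 were called higher in LSEC, Flt4 and Lyve1 with the limits given above, and 2 higher in lung. Pdpn, which encodes podoplanin, a protein also made by alveolar epithelium and fibroblasts, differed by -2.72, and Prox1, the factor that defines lymphatic endothelium, was not called.

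Pan-endothelial genes were mostly higher in LSEC. Of 20 tested, 11 were called higher in LSEC and 5 higher in lung, where 25.9% and 20.2% of all genes were. Their median was 0.84 (0.16 after endothelial centring). That centring uses these same 20 genes and makes their mean equal between the beds, so the 0.16 is no separate result. Values of its members after centring, such as those of Tie1, Flt1 and Pecam1 below, are relative to the list's own mean. Their summed level was 29570 to 35865 on the LSEC arrays and 15858 to 18890 on the lung arrays. Ptprb, the phosphatase that restrains Tie2, stood at 11.17, 11.26 and 10.92 in LSEC and at 8.36 and 8.16 in lung, a difference of 2.86 (SE 0.17, adjusted p = 3.3e-07). The BMP co-receptor gene Eng differed by 2.73, the matrix gene Mmrn2 by 2.37, the transcription factor gene Sox17 by 2.28, the guidance receptor gene Robo4 by 2.25 and the VEGF receptor gene Kdr by 1.72. Cldn5, the main claudin of endothelial tight junctions, stood at 8.71, 8.95 and 8.26 in LSEC and at 11.07 and 11.08 in lung, a difference of -2.43 (SE 0.21, adjusted p = 5.72e-06). Vwf, the clotting factor carrier, stood at 5.91, 5.80 and 6.21 in LSEC and at 7.96 and 7.51 in lung, a difference of -1.76. The genes nearest to equal were Tie1 at -0.18 (95% interval -0.59 to 0.24), Flt1 at 0.29 (0.02 to 0.56) and Pecam1 at 0.46 (0.00 to 0.93), none of them called, with adjusted p of 0.471, 0.0723 and 0.0934. The sign of each depended on the setting. Tie1 was 0.029 without lung array 1 and Pecam1 was -0.22 after endothelial centring. Tie1 was called lung-high after endothelial centring, at -0.86 (adjusted p = 0.000244). Flt1 was called in either direction, at 0.39 without LSEC array 3 (adjusted p = 0.0206), at -0.42 as the mean of its probe sets (0.00533) and at -0.40 after endothelial centring (0.0294), and its 3 other probe sets differed by -0.52, -0.68 and -0.76.

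Junction genes were called higher in LSEC at 6 and higher in lung at 6 of 23 members, shares near the 25.9% and 20.2% over all genes. Cdh5, the cadherin of endothelial junctions, differed by 1.27 on its brightest probe set, with 12.34, 12.36 and 12.27 in LSEC and 11.19 and 10.91 in lung, and by -0.77 on another. The direction of Cdh5 was therefore not settled between its probe sets, and as their mean it was not called, at 0.25. Jup, which encodes plakoglobin, differed by -1.40, and the cadherin gene Cdh2 and the adhesion gene Nectin3 by -2.08 and -1.21. Of 8 caveola and diaphragm genes, 3 were called higher in lung and 1 higher in LSEC. The cavin genes Cavin3 and Cavin1, which shape caveolae, differed by -2.57 and -1.74, and Cav2 by 0.78. Ehd2, an ATPase at the neck of caveolae, differed by -3.71 on its brightest probe set, and 4 of its 5 probe sets were lower in LSEC while the other differed by 1.98.

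Ligands and receptors of vessel growth were called in both directions. Of 18 VEGF, angiopoietin and apelin genes 9 were called higher in LSEC and 3 higher in lung, where 25.9% and 20.2% of all genes were. The median was 0.66, and after endothelial centring it was -0.03 with 6 and 7 calls. Among ligands, Pgf, a VEGF relative that binds Flt1, stood at 11.14, 10.82 and 11.19 in LSEC and at 8.76 and 8.18 in lung, a difference of 2.58 (SE 0.23, adjusted p = 5.97e-06). Angpt2, the ligand that loosens vessels, differed by 1.73 and Apln, which encodes apelin, by 1.61. Vegfc, the lymphatic growth factor, was lung-high, with a mean of 5.68 in LSEC and 7.68 in lung. Apelin and its receptor thus lay on opposite sides, Apln higher in LSEC and Aplnr higher in lung. Among 23 angiocrine factors, secreted signals of endothelium to its organ, 8 were called higher in LSEC and 7 higher in lung. Il6 differed by -2.85, from a lung mean of 7.18, and with levels raised to the limit for testing by -0.34, which was not called (adjusted p = 0.361). Inhbb, an activin subunit gene, differed by -1.58.

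Of 30 BMP and TGF-beta genes 10 were called higher in LSEC and 16 higher in lung, where 25.9% and 20.2% of all genes were. Their median was -0.62. Bmp6, the ligand through which liver endothelium signals iron load to hepatocytes, stood at 11.09, 11.29 and 10.86 in LSEC and at 7.04 and 6.61 in lung, a difference of 4.26 (SE 0.18, adjusted p = 4.32e-08). Smad6, an inhibitory Smad that BMP signals induce, stood at 9.87, 10.38 and 9.97 in LSEC and at 7.42 and 7.54 in lung, a difference of 2.59. Eng was also LSEC-high, while the receptor gene Acvrl1 differed by -1.09. On the TGF-beta side, Ltbp1, which stores latent TGF-beta in matrix, differed by -4.98 and the ligand gene Tgfb3 by -3.25. Of 28 Wnt and R-spondin genes 6 were called higher in LSEC and 9 higher in lung. That is 53.6% of them, against 46.1% of all genes tested. Fzd4 and Tspan12, the receptor and co-receptor of norrin signalling, differed by 1.45 and 1.46. The receptor genes Fzd7, Fzd2 and Fzd1 differed by -2.51, -2.11 and -1.56, the Wnt antagonist gene Sfrp1 by -2.21 and Adgra2, a Wnt7 co-receptor gene, by -1.72.

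In the Notch list 2 of 17 genes were called higher in LSEC and 6 higher in lung. These made up 47.1% of those tested, near the 46.1% called over all genes. The receptor genes differed in direction, with Notch1 at 1.03 and Notch2 at -1.67. The ligand gene Jag1 stood at 9.87, 9.74 and 9.85 in LSEC and at 8.55 and 8.13 in lung, a difference of 1.48, while the target genes Heyl and Hes1 differed by -2.05 and -0.66. Guidance genes were called higher in LSEC at 8 and higher in lung at 9 of 27 members, 63.0% in all. The secreted repellents Slit3, Sema3a and Slit2 were lung-high, at -5.85, -3.48 and -2.51, and so was Sema3g. The receptors Robo4 and Plxnc1 were LSEC-high, at 2.25 and 2.01.

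Iron and heme genes were called higher in LSEC at 8 of 11 members and higher in lung at 1, where 25.9% and 20.2% of all genes were. The median, 1.14, was the highest of the 29 function lists. After endothelial centring it was 0.46 with 3 calls on each side. Besides Bmp6, Slc40a1, the iron exporter ferroportin, stood at 11.15, 11.18 and 12.08 in LSEC and at 9.17 and 9.54 in lung, a difference of 2.11 (SE 0.41, adjusted p = 0.00139). The ferric reductase gene Cybrd1 differed by 1.35 and the metal transporter gene Slc11a1 by 1.34, the latter no longer called without lung array 1 (adjusted p = 0.0714). Slc40a1 and Slc11a1 were highest on LSEC array 3, the array with the highest macrophage sum, and without it they differed by 1.81 and 0.95, both still called. Cp, the plasma ferroxidase ceruloplasmin, stood at 7.53, 5.57 and 7.48 in LSEC and at 11.57 and 11.90 in lung, a difference of -4.88. Of 11 carbonic anhydrases 2 were called on each side. Car8, a member without enzyme activity, stood at 11.28, 11.15 and 10.97 in LSEC and at 6.87 and 6.51 in lung, a difference of 4.44 (SE 0.24, adjusted p = 1.95e-07), and Car2, the common cytosolic enzyme, at 5.99, 6.03 and 6.13 in LSEC and 10.68 and 10.50 in lung, a difference of -4.54 (SE 0.31, adjusted p = 9.26e-07). Car13 differed by 0.81.

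Transporters were called higher in LSEC at 4 and higher in lung at 3 of 13 genes, shares near the 25.9% and 20.2% over all genes. The water channel gene Aqp1 differed by 1.20 and the drug efflux pump gene Abcg2 by 1.16, while the amino acid carrier gene Slc7a5 and the lactate carrier gene Slc16a1 differed by -2.12 and -1.40. Slc30a1, a zinc exporter gene, differed by 1.07 on its brightest probe set and by -0.71 on another. Lipid genes were called higher in LSEC at 2 and higher in lung at 7 of 21 members. Fabp4, a fatty acid binding protein gene, differed by 1.08, and Angptl4, an inhibitor of lipoprotein lipase, by -1.46. Gpihbp1, which anchors that lipase on capillaries, differed by -0.94 (adjusted p = 0.0336). It was no longer called without LSEC array 1, LSEC array 3, lung array 1 or lung array 2, at adjusted p of 0.0935, 0.0957, 0.112 and 0.131.

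Of 23 vascular tone genes 7 were called higher in LSEC and 11 higher in lung, where 25.9% and 20.2% of all genes were. Their median was -0.37. Edn1, which encodes the constrictor endothelin-1, stood at 12.28, 12.37 and 11.94 in LSEC and at 8.27 and 7.59 in lung, a difference of 4.27 (SE 0.22, adjusted p = 1.52e-07). Both this ligand and its receptor Ednrb were LSEC-high. Ptgis, the synthase of the dilator prostacyclin, stood at 5.15, 6.09 and 6.39 in LSEC and at 10.02 and 10.04 in lung, a difference of -4.16 (SE 0.40, adjusted p = 1.14e-05). Pde5a, which degrades cyclic GMP, and the bradykinin receptor gene Bdkrb2 differed by -2.23 and -1.97. Coagulation genes were called higher in LSEC at 9 and higher in lung at 5 of 17 members, with a median of 0.42 that became -0.26 after endothelial centring, with 6 and 7 calls. Besides F8, Procr, the endothelial protein C receptor, differed by 2.90 and Entpd1, which breaks down extracellular ATP, by 1.42. Plat, the plasminogen activator released by endothelium, differed by -1.91 and Vwf by -1.76. The transcripts of factor VIII and of its plasma carrier thus lay on opposite sides.

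Of 23 leukocyte adhesion genes and integrins 11 were called higher in LSEC and 5 in lung, where 25.9% and 20.2% of all genes were. Their median of 0.43 became -0.25 after endothelial centring, with 4 and 7 calls. Itgb3, an integrin subunit, differed by 2.12. Cd34, a surface mucin of capillary endothelium and of some fibroblasts, stood at 5.60, 4.99 and 6.01 in LSEC and at 9.61 and 9.62 in lung, a difference of -4.08 (SE 0.25, adjusted p = 4.56e-07). Mcam, Cd44 and Alcam, which encode adhesion receptors, differed by -2.18, -1.73 and -1.45. Basement membrane and matrix genes were lung-high at 17 of 29 members and LSEC-high at 3, with a median of -0.66. Sparcl1, a matrix glycoprotein gene, stood at 4.89, 4.82 and 5.13 in LSEC and at 12.16 and 12.48 in lung, a difference of -7.37 (SE 0.35, adjusted p = 8.06e-08). Col15a1, a basement membrane collagen gene, differed by -5.94, Fbln2 by -4.26, Fn1, which encodes fibronectin, by -3.92 and Vcan by -3.71. Most of these are also made by fibroblasts, whose markers moved the same way, and the source of the RNA was not tested.

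Of 39 endothelial transcription factors 14 were called higher in LSEC and 11 higher in lung, where 25.9% and 20.2% of all genes were. Tfec, a factor of the MITF family, stood between 9.85 and 10.04 on the LSEC arrays and at 7.71 and 7.72 in lung, a difference of 2.25 (SE 0.14, adjusted p = 4.43e-07). With Gata4 and Sox17 it made up the called LSEC-high members of at least 4-fold, and Tbx2 and Heyl the lung-high ones. Of 17 HOX, MEIS and PBX factors tested, which pattern tissues by body position, 3 were called higher in LSEC and 5 higher in lung. That is 47.1% of them, near the 46.1% called over all genes. Meis2 differed by 2.02, and Hoxc5, Hoxb6, Hoxa2 and Hoxa4 by -2.09, -1.58, -1.50 and -1.50. Hoxc5 had a mean below the level limit in both beds of the controls, and its other probe sets differed by 0.21 and 1.40. With levels raised to the limit for testing, Hoxc5 showed no difference and Hoxa2 was -0.21 (adjusted p = 0.0586), so neither was called. Of the floxed genes 1 was called. Foxo1 stood at 8.97, 8.89 and 8.87 in LSEC and at 8.86 and 8.90 in lung, a difference of 0.03 (95% interval -0.26 to 0.33, adjusted p = 0.858). It was -0.048 in the values as deposited, -0.51 as the mean of its probe sets and -0.65 after endothelial centring, where it was called (adjusted p = 0.00758). Its other probe sets above the limit differed by 0.16 and 0.07, while another, under the limit in both beds, differed by -2.32. Foxo4 was not called, at -0.35 (95% interval -0.85 to 0.15, adjusted p = 0.229), but it was called with levels raised to the limit for testing, at the same difference (adjusted p = 0.0149), and after endothelial centring, at -1.04 (0.0037). Foxo3 was called, at 9.08, 9.13 and 9.17 in LSEC and 8.53 and 8.59 in lung, a difference of 0.56 (adjusted p = 0.00048) that became -0.12 after endothelial centring.

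**Figure D4:**
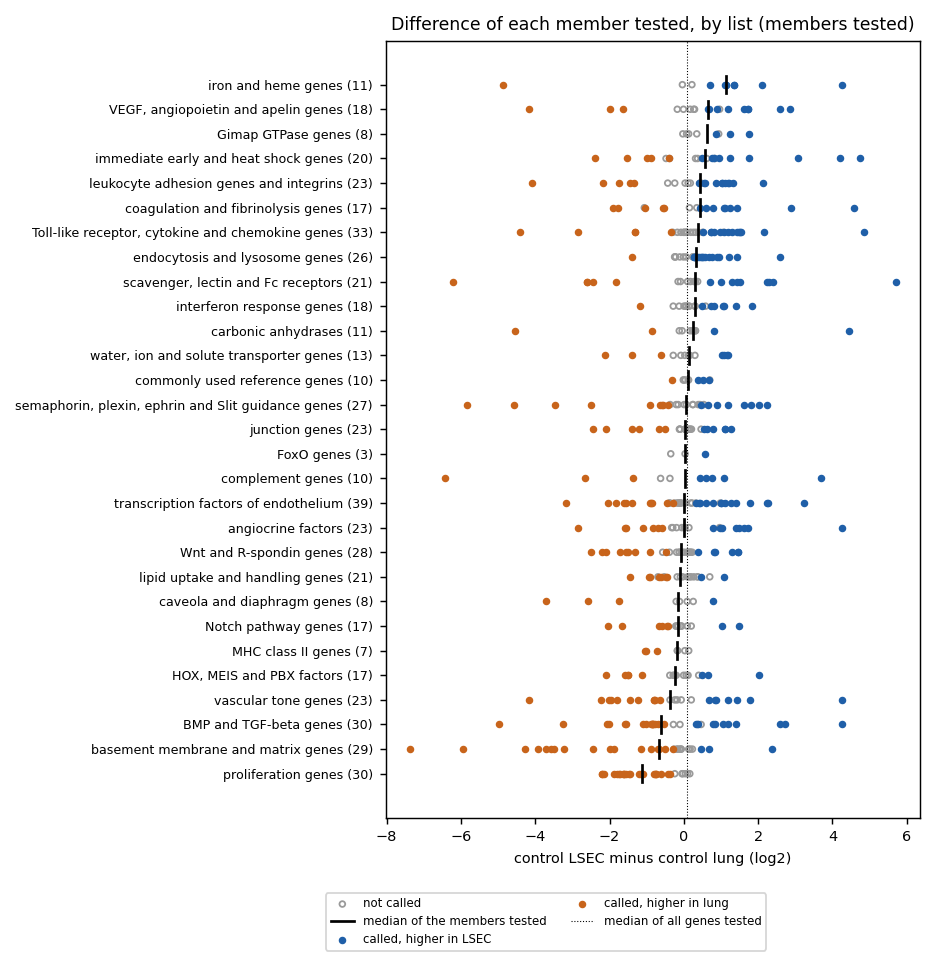
Difference of each member tested (points, control LSEC minus control lung, log2) in the 29 function lists, ordered by the median of the members (bars), with the median of all genes dotted at 0.08. Iron and heme genes have the highest median, 1.14, and proliferation genes the lowest, -1.13. Endothelial centring would move every point 0.68 to the left, after which the medians between 0 and 0.68 are negative.

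Chemokine, heat shock and early response genes were among the largest LSEC-high differences. Of 33 Toll-like receptor, cytokine and chemokine genes 14 were called higher in LSEC and 5 higher in lung. The shares over all genes were 25.9% and 20.2%, and the list median was 0.39. Of 20 early response and heat shock genes 9 were called higher in LSEC and 5 higher in lung, with a median of 0.56. After endothelial centring the medians were -0.30 and -0.13, with 6 and 13 calls in the first list and 4 and 7 in the other. Cxcl2, a chemokine that draws neutrophils, stood at 10.59 ± 0.41 (SD, n = 3) in LSEC and at 5.74 ± 0.20 (SD, n = 2) in lung, a difference of 4.85 (SE 0.44, adjusted p = 6.94e-06). Its neighbour in function Cxcl1 differed by 2.17. The inducible HSP70 genes Hspa1a and Hspa1b, whose products refold proteins after stress, differed by 4.73 (SE 0.64) and 4.22 (SE 0.63), with adjusted p of 0.000127 and 0.000274. The stress factor gene Atf3 differed by 3.07 and Fos by 1.75, while Egr2 differed by -2.38. Such genes are known to respond within minutes to the handling of cells, and how the cells were prepared is not described, so preparation and bed cannot be told apart for them. The sequences that follow show the promoters of both pairs as RefSeq gives them on GRCm38.p6, the 250 bases before the start site, because the members of each pair differed in the same direction. Capitals mark 1 heat shock element, searched as GAANNTTC, in Hspa1a (chr17:34972157-34972406, minus strand) and Hspa1b (chr17:34959239-34959488, minus strand). They mark 1 NF-kappaB site, searched as GGGAATTTC, in Cxcl2 (chr5:90903649-90903898, plus strand) and Cxcl1 (chr5:90890995-90891244, plus strand). Both strands were searched, and in these promoters the motifs shared no bases.
Hspa1a: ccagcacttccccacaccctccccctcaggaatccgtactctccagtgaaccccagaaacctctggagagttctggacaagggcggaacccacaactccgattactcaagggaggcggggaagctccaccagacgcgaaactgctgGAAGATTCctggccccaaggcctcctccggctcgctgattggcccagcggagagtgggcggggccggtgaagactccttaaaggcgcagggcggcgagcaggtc
Hspa1b: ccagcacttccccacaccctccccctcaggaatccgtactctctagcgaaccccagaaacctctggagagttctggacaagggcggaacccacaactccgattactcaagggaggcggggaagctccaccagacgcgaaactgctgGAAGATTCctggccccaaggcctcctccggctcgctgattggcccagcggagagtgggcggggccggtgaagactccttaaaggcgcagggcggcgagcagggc
Cxcl2: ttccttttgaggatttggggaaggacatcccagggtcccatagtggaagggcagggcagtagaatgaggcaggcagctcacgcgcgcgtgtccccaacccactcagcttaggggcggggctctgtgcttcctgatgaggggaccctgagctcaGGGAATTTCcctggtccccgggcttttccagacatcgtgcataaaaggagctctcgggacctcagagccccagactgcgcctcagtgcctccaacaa
Cxcl1: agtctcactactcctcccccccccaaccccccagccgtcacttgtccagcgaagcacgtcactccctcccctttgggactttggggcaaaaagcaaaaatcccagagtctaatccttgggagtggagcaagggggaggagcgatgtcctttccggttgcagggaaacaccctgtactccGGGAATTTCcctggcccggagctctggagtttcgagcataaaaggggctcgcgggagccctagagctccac

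The Hspa1a and Hspa1b stretches were identical at 247 of 250 positions (98.8%), and the element began 104 bases before the start site in both. The transcripts of these copies are also nearly identical, so their probe sets cannot be taken to measure them separately. The NF-kappaB letters began 97 bases before the start site of Cxcl2 and 71 before that of Cxcl1. The heat shock element was held by 6.69% of all 32851 promoters in the table and by 5.02% of those of genes tested. Among promoters of called genes at least 4-fold different, 7.45% of the 94 LSEC-high and 5.76% of the 278 lung-high ones held it. The 7 LSEC-high promoters with it included those of Hspa1a and Hspa1b, the genes it was searched for. That share is therefore not independent of the choice of motif. The NF-kappaB letters were rarer, at 0.234% of all promoters, 0.172% of those of genes tested, 2.13% of the LSEC-high ones, which were those of Cxcl1 and Cxcl2, and 0.36% of the lung-high ones. Cxcl1 and Cxcl2 are the genes these letters were searched for, so the LSEC-high share is not independent of the choice of motif either. A GATA site, searched as AGATAA, was also sought in the promoter of Stab2, which held no match. It was held by 9.99% of all promoters and 6.29% of those of genes tested. Among the LSEC-high ones 9.57% held it, and among the lung-high ones 7.91%. Of the 95 and 323 genes, 75 and 223 had a promoter in the table. A match is a description of letters and does not show that a factor binds there.

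Other innate genes had smaller differences. Tlr4, the receptor of bacterial endotoxin, and Ly96, its co-receptor MD-2, differed by 1.42 and 1.55, and the chemokine gene Ccl2 and the NF-kappaB inhibitor gene Tnfaip3 by 1.51 and 1.48. Ackr3, a chemokine scavenging receptor, was lung-high, with 5.98, 6.32 and 5.71 in LSEC and 10.47 and 10.36 in lung, a difference of -4.41. Of 18 interferon response genes 7 were called higher in LSEC and 1 higher in lung, where 25.9% and 20.2% of all genes were. Their median of 0.30 became -0.39 after endothelial centring, with 2 and 6 calls. Bst2 differed by 1.83 and Irf7 by 1.41, and Ifitm3 by -1.19. Gimap GTPases, which are found in lymphocytes and endothelium, were called higher in LSEC at 3 of 8 genes, where 25.9% of all genes were. These were Gimap8 at 1.75, Gimap6 at 1.23 and Gimap1 at 0.87. The list median of 0.61 became -0.07 after endothelial centring, with 2 calls on each side. Of 10 complement genes 5 were called higher in LSEC and 3 higher in lung. Cd55, which shields cells from complement, stood at 9.95, 10.43 and 10.17 in LSEC and at 6.68 and 6.29 in lung, a difference of 3.70. Serping1, the inhibitor of the first complement step, and C1ra, a protease of that step, differed by -6.43 and -2.67. The MHC class II chaperone gene Cd74 differed by -1.04 and H2-DMa by -1.02, the latter -0.16 and not called (adjusted p = 0.173) with levels raised to the limit for testing.

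Proliferation genes were lung-high as a group. Of 30 tested, 24 were called higher in lung and none in LSEC, where 20.2% of all genes were called higher in lung, and the median was -1.13. Top2a, the topoisomerase of dividing cells, stood at 7.97, 7.45 and 8.36 in LSEC and at 10.22 and 10.06 in lung, a difference of -2.21 (SE 0.24, adjusted p = 2.46e-05), and -0.71 as the mean of its probe sets. Ccnb2, a mitotic cyclin gene, differed by -2.21, the spindle genes Tpx2 and Bub1 by -2.14 and -1.80, and the cell cycle marker Mki67 by -1.55. Which cells of the lung samples carried these transcripts was not tested. Of 10 commonly used reference genes 4 were called. B2m, Pgk1 and Hprt differed by 0.68, 0.53 and 0.39, and turned to -0.0062, -0.16 and -0.30 after endothelial centring. Polr2a differed by -0.33 and lost its call without lung array 1 (adjusted p = 0.0927).

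Several of the 20 largest differences on each side belong to no list above. On the LSEC side, Lrrc38, a subunit gene of potassium channels, stood at 7.95, 7.94 and 7.70 in LSEC and at 3.98 and 0.18 in lung. Its difference of 5.78 had an SE of 1.60 and was 3.89 without lung array 2, where it was not called (adjusted p = 0.143). Clec1b, the platelet receptor CLEC-2, stood at 11.21 ± 0.22 (SD, n = 3) in LSEC and at 6.85 ± 0.13 (SD, n = 2) in lung, a difference of 4.36. Slc12a5, a potassium chloride cotransporter gene known from neurons, differed by 3.72, Rerg, a small GTPase gene, by 3.55, Dpp4, a surface peptidase gene, by 3.54 and 4930486L24Rik by 4.13. On the lung side, S1pr3, a sphingosine phosphate receptor gene, stood at 4.36, 3.97 and 5.13 in LSEC and at 11.17 and 11.46 in lung, a difference of -6.83. Loxl1, which crosslinks elastin, differed by -6.90. Medag, G0s2, Ms4a4d, Mmp3 and Tmem45a differed by -6.97, -6.19, -6.18, -5.43 and -5.39. In 261 of the 418 genes of at least 4-fold, 41 LSEC-high and 220 lung-high, the lower bed lay under 6.87, the level limit for testing. The size of such a difference depends on how dim probe sets were processed, and with every level below the limit raised to it 72 LSEC-high and 194 lung-high genes were called at 4-fold or more.

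The Cre+ samples of the series, 3 of LSEC and 2 of lung endothelium, gave the same comparison on other arrays. These mice carried MxCre and the same floxed alleles, and the fit shared 1 estimate of spread with the control arrays. Of all 6011 genes called in controls, 4476 were called in the same direction in Cre+ samples, where 5749 genes were called. Of the 418 genes called and at least 4-fold in controls, 399 were called in the same direction in Cre+ samples. These were 88 of 95 LSEC-high and 311 of 323 lung-high genes, and 3 of the 418 had the opposite sign. The median of the LSEC-high genes was 2.46 in controls and 2.02 in Cre+ samples, and that of the lung-high genes -2.77 and -2.75. The control medians are those of genes chosen on the control values, which also enter the interaction term below. The difference between beds itself differed between genotypes, by the interaction term of the model, at 80 of all genes tested (0.614%) and at 19 of the 418. Among named genes these were Lyve1, 0.69 in controls and -2.67 in Cre+ samples, Angpt2, 1.73 and -0.57, Fcgr2b, 2.25 and 0.21, and Clec4g, 2.40 and 0.57. Mcam went from -2.18 to 0.58 and Il6 from -2.85 to 1.65. Stab2, Gata4, Ace and Car4 were not among them.

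**Figure D5:**
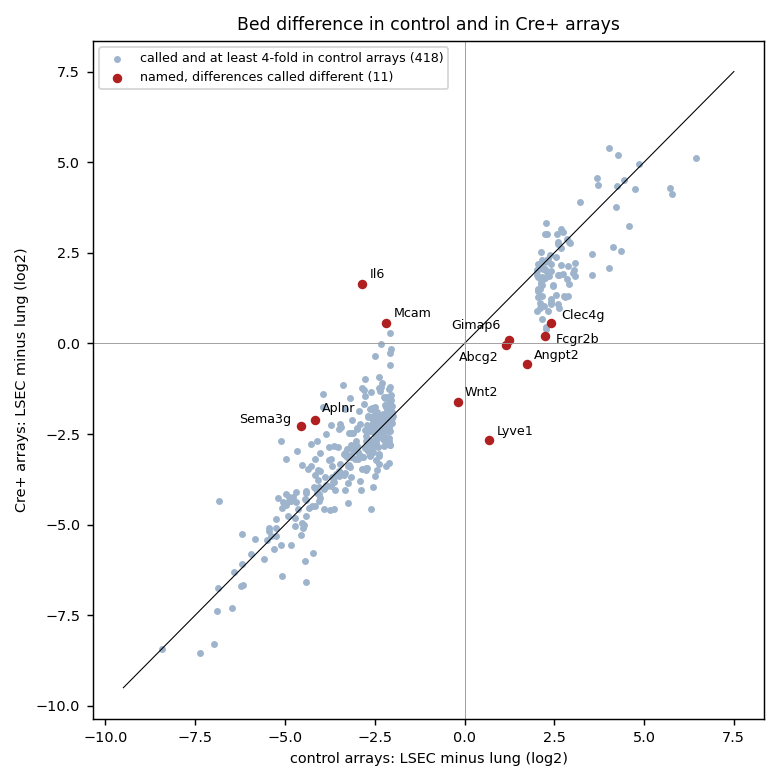
Difference between LSEC and lung (log2) in control arrays (horizontal axis) and in Cre+ arrays (vertical axis) for the 418 genes called and at least 4-fold in controls, with the line of equality. Red points, not all of them among the 418, are the 11 named genes whose difference was called different between genotypes, such as Lyve1, 0.69 in controls and -2.67 in Cre+ samples.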

How the data were processed

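The deposited table holds 1 value for each of 45101 probe sets on each of 14 arrays. The authors' values are on a log scale, read as log2 from their range. The sources used here do not give the base, nor the background correction, summarization and normalization that the authors applied. The smallest deposited value is 0, which 260 to 312 probe sets per control array share. RNA was extracted with Trizol and columns and labelled with biotin, per the labels' protocols.

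All 14 arrays were quantile normalized. Of the probe sets, 34958 carried 1 gene symbol in the array annotation, 932 several and 9211 none, and 34754 matched the RefSeq gene table of GRCm38.p6. The brightest probe set stood for each gene. Genes were tested where the highest of the tissue means was at least 6.87, which is the 40th percentile of all probe sets. Genes without an annotated probe set were not analysed here. A model with 6 group means was fitted in limma 3.58.1 under R 4.3.3. The residual degrees of freedom were 8 and the prior ones 3.20, so the spread is shared with the Cre+ and thymus arrays. P-values were adjusted by Benjamini-Hochberg over all genes tested, with calls under 0.05. Summed levels are sums of antilog values over the members measured.

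The named genes were the 5 bed markers, the 20 largest called differences in each direction with no overlap between groups, up to 5 called members of each of 52 lists with the largest difference, the 3 pan-endothelial genes with the smallest, and the FoxO genes, 202 in all. A further 20 were described after their values were seen. The comparison, its members and the lists were chosen with earlier results of these data known. Alternatives were the values as deposited, median centring, centring on the pan-endothelial genes, no filter, the 60th percentile, a filter on the control means, the mean of a gene's probe sets, levels floored at the limit, trend and robust moderation, array weights, only the 5 arrays, the replicate number as a block, and omission of every array in turn. The test was tried on simulated data with 13036 genes and this design. There 100 genes were given a log2 difference of 1, 100 others one of 2, and the rest none. It recovered 80% and 99% of them, and 7.73% of its calls were false. In the data themselves 46.1% of genes were called, so these rates need not hold for this comparison. The number of arrays limits the precision.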

Additional observations from a re-analysis of the deposited data

Results flagged for a closer look

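At 11 named genes the difference between LSEC and lung itself differed between control and Cre+ samples, by the interaction term in limma, with p-values adjusted over all genes tested. Over all genes tested 80 (0.614%) were called this way. The values below are Cre+ minus control, on the log2 scale. Where the bed difference was positive in controls, it was lower in Cre+ samples by the following amounts. Lyve1 changed by -3.37 (adjusted p = 0.00219), Angpt2 by -2.31 (adjusted p = 0.0111), Fcgr2b by -2.04 (adjusted p = 0.0139) and Clec4g by -1.83 (adjusted p = 0.0084). Abcg2 changed by -1.19 (adjusted p = 0.0253), from 1.16 to -0.04, and Gimap6 by -1.13 (adjusted p = 0.0449), from 1.23 to 0.10. Wnt2, with -0.19 in controls and -1.60 in Cre+ samples, changed by -1.41 (adjusted p = 0.0304). Where the bed difference was negative in controls, Aplnr changed by 2.07 (adjusted p = 0.0468), from -4.17 to -2.10, and Sema3g by 2.28 (adjusted p = 0.0315), from -4.57 to -2.28. Mcam changed by 2.75 (adjusted p = 0.0071) and Il6 by 4.50 (adjusted p = 0.0198). The groups hold 2 or 3 arrays, so no array was tested as an outlier within its group.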

How the results depend on the processing

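The counts of calls were recomputed under 17 settings. Centring on the pan-endothelial genes gave 427 genes called higher in LSEC and 8686 higher in lung, of which 36 and 650 differed at least 4-fold, and 2187 called genes changed sign. Raising levels to the filter limit left 194 lung-high genes of at least 4-fold. Under the other settings each of the 4 counts stayed within 1.5 times its main value. Leaving out each array in turn gave 2257 to 3207 genes higher in LSEC, 1921 to 2450 higher in lung, 86 to 108 LSEC-high and 294 to 352 lung-high genes of at least 4-fold. Of the differences of named genes under the alternatives, 3595 kept direction and call, 107 lost the call, 8 gained it and 19 changed sign. After centring on the pan-endothelial genes Apoc3 was -0.28, Ms4a1 -0.22, Nkg7 -0.10, Gp9 -0.028, Foxo3 -0.12, B2m -0.0062, Pgk1 -0.16, Hprt -0.30, Flt1 -0.40, Pecam1 -0.22, Foxo1 -0.65, Mrc1 -0.37 and Rspo3 -0.55. Foxo1 was -0.048 as deposited and -0.51 as the mean of its probe sets, where Flt1 was -0.42. On leaving out single arrays Tie1 ran from -0.38 to 0.029, Wnt2 from -0.45 to 0.060 and Rspo3 from -0.061 to 0.24, and their signs changed without lung array 1, lung array 2 and LSEC array 1 respectively. The cause of these changes was not tested, other than the shift that centring itself makes.

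The replicate numbers were not taken to pair the samples. Same-numbered LSEC and lung arrays deviated from their group means with correlations of 0.126 and -0.00411, and only 2 numbers are shared. The 2 lung arrays deviate from their mean by mirrored amounts, so these correlations cannot show whether samples were paired. With the replicate number as a block, which leaves LSEC array 3 without a partner, 2886 genes were called higher in LSEC and 2281 higher in lung, of which 95 and 352 differed at least 4-fold.

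The precision is limited by 3 and 2 arrays. Of the other probe sets of called named genes, 188 of 218 had the sign of the one used, and 10 of the 30 opposite ones had a level above the limit. Genes with 1 bed under 6.87 have uncertain sizes.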
